A study of Mus musculus with 9 samples.

Results

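The synaptic vesicle release machinery comprised 47 genes here, taken by symbol from the deposited count table of 54532 genes: 8 SNAREs and proteins that recycle them, 13 calcium sensors and complexins, 13 other vesicle proteins, 9 active zone proteins and 4 proteins of vesicle endocytosis. All 47 were found, and all 47 passed the filter on low counts, which left 19782 genes. The data were RNA-seq libraries of the ipsilateral hippocampus of 9 N4 Ube3a m-/p+ mice, a model of Angelman syndrome. These mice carry a null Ube3a allele of maternal origin with an intact paternal allele, which neurons silence, and were backcrossed onto a 129Sv/Ev background that is prone to seizures evoked by sound. At P21 the mice received an intracerebroventricular injection of 0.5 nmol of either Ant-134, an antisense oligonucleotide (antimiR) that binds the microRNA miR-134 (n = 5), or Scr, its scrambled control (n = 4). Every mouse of both groups then heard the seizure-evoking sound at P22, P24 and P26, and tissue was taken 24 h after the last test. There were no mice without the Ube3a deletion, without an injection or without seizure testing among these libraries, and each library was the homogenate of 1 mouse.

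A nerve terminal releases transmitter when a vesicle carrying synaptobrevin (VAMP) is docked at the active zone, primed, and fused with the plasma membrane through the SNARE bundle that VAMP forms with SNAP-25 and syntaxin. Calcium entry is sensed by synaptotagmins, complexins hold and assist the bundle, and NSF with its attachment proteins takes spent bundles apart. Vesicle membrane is then retrieved by dynamin and its partners, so that the small pool of vesicles in hippocampal terminals can be used again.

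The libraries held between 28583298 and 38431058 counts in the Ant-134 group and between 31985959 and 41978113 in the Scr group. Libraries were compared in CPM, which scales the counts to a common total with TMM factors, and genes in FPKM, which also divides by gene length. The 5 markers of hippocampal excitatory neurons, Camk2a, Neurod6, Neurod2, Nrgn and Bhlhe22, were all present and summed to between 4937 and 5920 CPM in Ant-134 and between 4734 and 5807 CPM in Scr. Libraries differed in markers of neighbouring tissue. The 5 choroid plexus markers, all detected, summed to between 66.3 and 2550.5 CPM in Ant-134 and between 78.6 and 2014 CPM in Scr, and the 6 oligodendrocyte markers to between 7020 and 11805 CPM and between 8834 and 9484 CPM. The 6 microglial markers summed to between 296 and 337 CPM in Ant-134 and between 346 and 394 CPM in Scr, so that by this sum every Ant-134 library lay below every Scr library. In whole tissue, fewer cells of a type and less RNA per cell cannot be told apart.

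Ant-134 was compared with Scr to ask which transcripts differed in the hippocampus after seizure testing. Snap25 was 1.09-fold higher in Ant-134, and it was the only 1 of the 47 genes with an unadjusted p below 0.05 in edgeR's quasi-likelihood test. That threshold is the one the study used. No member was lower at that threshold, and 0 members passed after Benjamini-Hochberg adjustment over all genes, with a smallest adjusted p of 0.998. Of all genes tested, 1.49% were higher and 2.69% lower at the unadjusted threshold and 0% passed adjustment, so 1 of 47 was close to the background. DESeq2 called 2 members, Snap25 and Syt3, both higher, with 0 after adjustment, beside 1.08% of genes higher, 1.66% lower and 0.0648% past adjustment in that test. DESeq2 was run without the filter, over 37435 genes, so its background includes genes with few counts. For 0 of the 47 genes did the libraries of one group lie wholly above or below those of the other, which occurred for 0.647% of all genes tested with Ant-134 above and for 0.895% with Ant-134 below.

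The fold changes were small and leaned upward. The log2 fold change was above 0 for 38 members and below 0 for 9, with a median of 0.039 beside a median of 0.0026 over all genes tested, of which 51.2% were above 0. Genes outside the list that reached 100 FPKM on average also leaned upward, with 74.6% of 350 above 0 and a median of 0.034. Of the 14 members at that level, 13 were above 0. Below it, 25 of 33 members (75.8%) were above 0, with a median of 0.032, beside 50.7% of the other genes tested, with a median of 0.0016. Levels were not matched in this split, as the median level was 47.9 FPKM over all 47 members and 3.39 FPKM over all genes tested. The 95% interval of the fold change lay within 1.2-fold in either direction for 40 of the 47 members. The 7 others, Cplx3, Unc13c, Rab3b, Doc2a, Syt2, Syn3 and Rims3, were all below 10 FPKM on average, and their wider intervals are visible in the plot of fold changes.

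**Figure D1:**
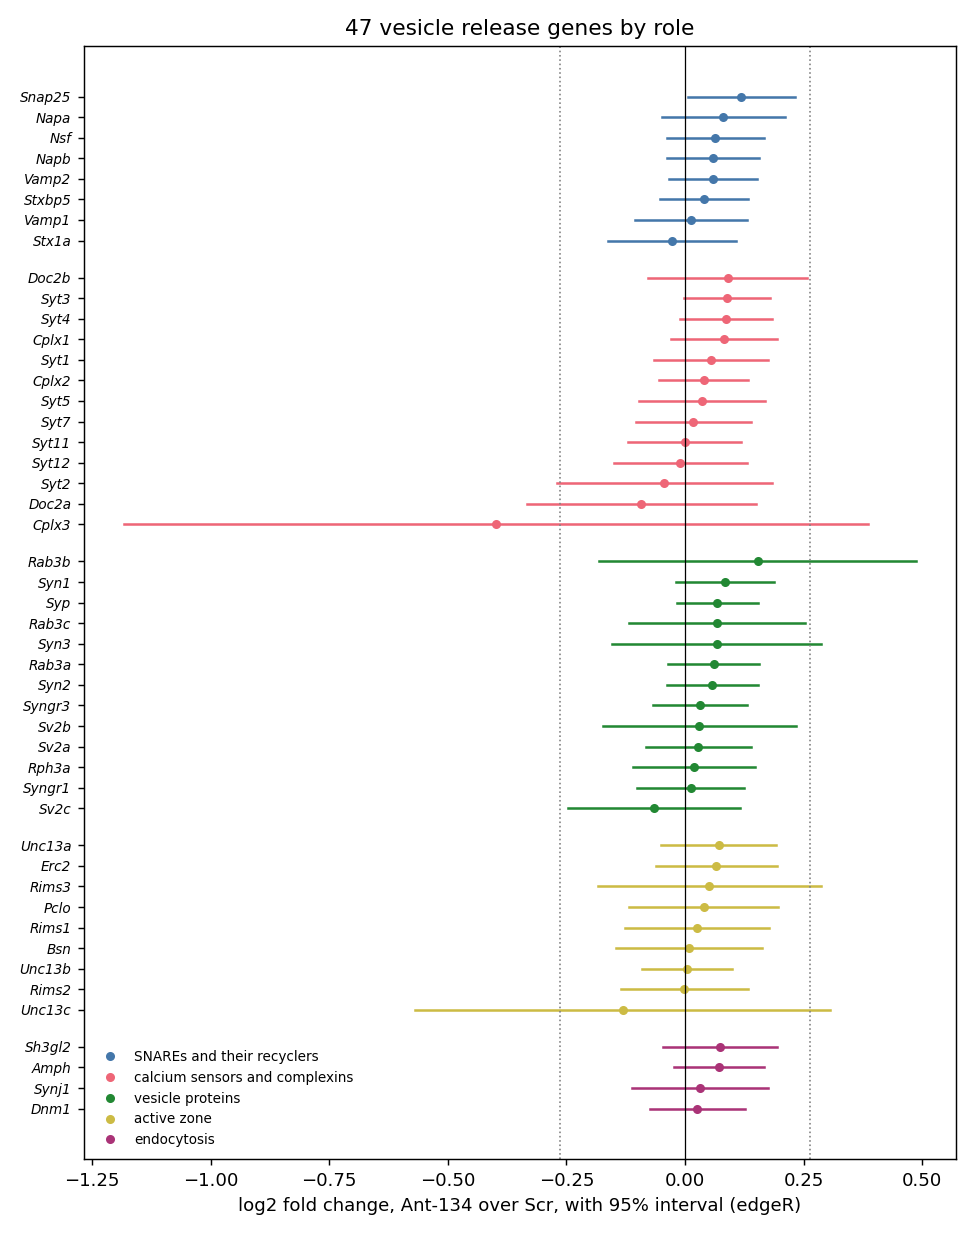
The log2 fold change of Ant-134 over Scr (x axis) for the 47 genes, grouped and coloured by role. Points are edgeR estimates, bars are 95% intervals and dotted lines mark a 1.2-fold change in either direction. The interval of Snap25 excludes 0, those of the other 46 include it, and that of Cplx3 is the widest.

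The SNAREs and their recyclers had a median log2 fold change of 0.059, with 7 of 8 above 0 and 1, Snap25, past the unadjusted threshold. Snap25 (chr2:136713453-136782428, + strand, GRCm38) encodes the plasma membrane SNARE SNAP-25. The study lists it among the higher genes of this same comparison as associated with epilepsy, so its call is not independent evidence. Its level was 1327, 1259, 1366, 1360.4 and 1144 CPM in Ant-134 libraries 1 to 5 and 1196, 1243, 1169 and 1149 CPM in Scr libraries 1 to 4. In 4 of 5 Ant-134 libraries it was above every Scr library, whereas Ant-134 library 5 was below all 4 Scr libraries. The means were 1291 ± 92.5 CPM (SD, n = 5) and 1189 ± 40.6 CPM (SD, n = 4). The log2 fold change was 0.12 (SE 0.053, 95% interval 0.0068 to 0.23), with an unadjusted p of 0.0391 and an adjusted p of 0.998 in edgeR, and a two-sided exact permutation test over all assignments of the libraries gave p = 0.0952. Without Ant-134 library 5 the edgeR p was 0.00248. It rose above the threshold without Ant-134 library 1, 3 or 4 (0.0735, 0.0950 and 0.0861) or Scr library 1, 3 or 4 (0.0732, 0.0849 and 0.101), with at least 10 counts required in every library (0.0504) and with a covariate of Y-linked gene levels (0.0636). With limma on log2(FPKM + 1) the p was 0.0517. In these 9 settings the log2 fold change was between 0.097 and 0.12. Ant-134 library 5 also had the lowest summed level of the 9 libraries for the markers of oligodendrocytes (7020 CPM over 6 genes), CA3 pyramidal cells (457 CPM over 5 genes, against 513 to 636 CPM in the others) and microglia (296 CPM over 6 genes, against 301 to 394 CPM). It had the highest for CA1 pyramidal cells (699 CPM over 5 genes, against 580.1 to 676 CPM) and for inhibitory interneurons (759 CPM over 7 genes, against 632 to 741 CPM), and the part of this composition in the Snap25 values was not tested.

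Vamp2, the synaptobrevin of most forebrain vesicles, was the most abundant gene of this class per length, whereas Snap25 was higher in CPM. Vamp2 was present at 1092, 1116, 1148, 1040.0 and 1138 CPM in Ant-134 and 1080.1, 1063, 1003 and 1103 CPM in Scr. The groups overlapped, with Ant-134 library 4 below 3 of the Scr libraries, and the log2 fold change was 0.059 (SE 0.043), with an unadjusted p of 0.194 in edgeR. Of the rest, Napa and Napb, the attachment proteins that bring NSF to spent SNARE bundles, had log2 fold changes of 0.081 and 0.059, and Nsf itself, the ATPase, of 0.064. Stxbp5 (tomosyn), which competes with VAMP for the SNARE partners, was at 0.040 and Vamp1 at 0.013. Stx1a, the syntaxin of the plasma membrane, was the 1 member of the class below 0, at -0.028 (SE 0.063).

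**Figure D2:**
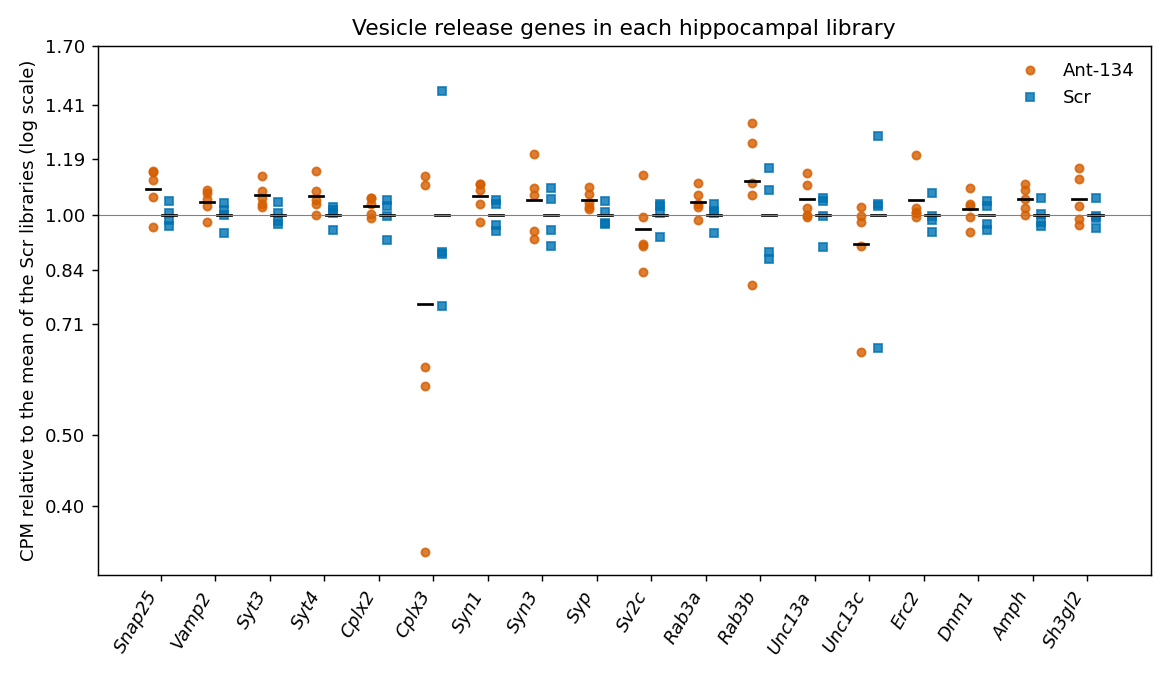
Level of the 18 genes described library by library, as CPM divided by the mean of the 4 Scr libraries (y axis, log scale). Circles are Ant-134 libraries, squares are Scr libraries and black lines are group means; 4 of 5 Ant-134 circles of Snap25 lie above its Scr squares, and Cplx3, Rab3b and Unc13c spread widely in both groups.

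Among the 13 calcium sensors and complexins, 8 were above 0 and 5 below, with a median of 0.036, and 0 passed the unadjusted threshold in edgeR. Syt3, a synaptotagmin with high calcium affinity, came closest, with 93.6, 95.7, 100.4, 91.8 and 91.0 CPM in Ant-134 and 89.5, 86.4, 87.1 and 92.4 CPM in Scr. All 5 Ant-134 libraries were above the Scr mean and 3 were above every Scr library. Its log2 fold change was 0.089 (SE 0.042, 95% interval -0.0010 to 0.18), the edgeR p was 0.0524, the DESeq2 p was 0.0441, and the exact permutation p was 0.0476. After adjustment over all genes neither tool called it, with an adjusted p of 0.998 in edgeR. Syt4, a synaptotagmin whose first C2 domain does not bind calcium in the usual manner, was at 112, 109, 107, 104 and 119 CPM in Ant-134 and 107, 99.3, 105 and 106 CPM in Scr. Here 4 of 5 Ant-134 libraries were above every Scr library and the remaining one, library 4, lay among them. The log2 fold change of Syt4 was 0.086 (SE 0.046), with an edgeR p of 0.0792. Without Ant-134 library 4 that p was 0.0383. The log2 fold change was 0.056 without Ant-134 library 5 (edgeR p of 0.193) and 0.064 without Scr library 2 (edgeR p of 0.210).

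None of the other synaptotagmins or the Doc2 genes passed the unadjusted threshold in edgeR or DESeq2. Syt1, the fast sensor of forebrain synapses, had a log2 fold change of 0.054 (SE 0.056), and Syt2, its counterpart in hindbrain and in some interneurons, of -0.043 (SE 0.11). Syt7, the slow sensor, was at 0.018, Syt5 at 0.036, Syt11 at -0.0010 and Syt12 at -0.0096. The Doc2 proteins, high-affinity sensors linked to spontaneous release, pointed in opposite directions without passing a test, with Doc2b at 0.090 (SE 0.077) and Doc2a at -0.092 (SE 0.11).

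Cplx2 and Cplx1 are the main complexins of the forebrain, and Cplx2 was the most abundant of all 47 genes per length. Cplx2 was at 1387, 1404, 1477, 1476 and 1446 CPM in Ant-134 and 1467, 1441, 1295 and 1395 CPM in Scr, where Scr library 3 was the lowest of the 9. The groups overlapped, with a log2 fold change of 0.039 (SE 0.044) and an edgeR p of 0.387, and Cplx1 had a log2 fold change of 0.083 (SE 0.052, edgeR p of 0.135). Cplx3, best known from ribbon synapses of the retina and from cortical subplate neurons, had the most negative estimate of the set but was at a low level. Its level was 3.17, 5.61, 5.77, 1.77 and 2.98 CPM in Ant-134 and 4.54, 3.83, 7.54 and 4.51 CPM in Scr. The lowest value was in Ant-134 library 4 and the highest in Scr library 3, while the other libraries were interleaved, and the log2 fold change of -0.40 had an SE of 0.35 and an interval from -1.18 to 0.39.

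Of the 13 vesicle proteins, 12 were above 0, with a median of 0.057, and 0 passed the unadjusted threshold in either direction. Syn1 encodes synapsin I, which tethers vesicles to one another in the reserve pool. Its level was 619, 659.7, 660.4, 648 and 585 CPM in Ant-134 and 626, 569, 581 and 619 CPM in Scr. As with Snap25, Ant-134 library 5 was the lowest of its group, and 3 Ant-134 libraries were above every Scr library. The log2 fold change was 0.084 (SE 0.048, edgeR p of 0.106), and without Ant-134 library 5 the edgeR p was 0.0287. The estimate was 0.060 without Scr library 2 (edgeR p of 0.265) and 0.069 without Scr library 3 (edgeR p of 0.220). Syp encodes synaptophysin, a membrane protein that binds VAMP and is widely used to stain terminals. It was at 1034, 1049, 1078, 1030.1 and 1102 CPM in Ant-134 and 981, 985, 1017 and 1056 CPM in Scr. All 5 Ant-134 libraries were above the Scr mean and 2 were above every Scr library, with a log2 fold change of 0.068 (SE 0.040, edgeR p of 0.112).

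Rab3a, the vesicle GTPase that binds RIM at the active zone, was the most abundant gene of the class per length. It was at 563, 569, 584, 541 and 608 CPM in Ant-134 and 519, 553, 557 and 569 CPM in Scr. The groups overlapped, and the log2 fold change was 0.060 (SE 0.045, edgeR p of 0.201). Its relative Rab3b had the most positive estimate of the set and also one of the widest intervals. Rab3b was at 42.0, 33.5, 39.5, 25.2 and 34.8 CPM in Ant-134 and 28.0, 27.4, 36.5 and 34.0 CPM in Scr. Ant-134 library 1 was the highest of the 9 and Ant-134 library 4 the lowest, so that 1 group spanned the other, and the log2 fold change was 0.15 (SE 0.15, 95% interval -0.18 to 0.49). Without Ant-134 library 4 the estimate was 0.25, with an edgeR p of 0.0372. It was 0.079 without Ant-134 library 1 and 0.091 without Scr library 2, each with an edgeR p of 0.588.

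The rarest vesicle proteins were Syn3 and Sv2c. Syn3, a synapsin tied to early development and to the reserve pool of some terminals, was at 7.83, 8.03, 9.18, 10.2 and 9.0 CPM in Ant-134 and 8.05, 7.66, 8.89 and 9.20 CPM in Scr, with a log2 fold change of 0.067 (SE 0.10). Sv2c, an SV2 glycoprotein of basal ganglia and of some interneurons, was at 15.2, 15.2, 18.9, 14.0 and 16.6 CPM in Ant-134 and 17.1, 16.8, 17.2 and 15.6 CPM in Scr, and at -0.066 (SE 0.085) it was the 1 vesicle protein below 0. In both genes the groups overlapped. The other 7 ranged from 0.012 for Syngr1 to 0.067 for Rab3c. Between them lay Rph3a, a Rab3 effector, at 0.019, Sv2a, the binding site of the antiseizure drug levetiracetam, at 0.028 (SE 0.052), Sv2b at 0.030, Syngr3 at 0.032 and Syn2 at 0.057.

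The 9 active zone genes had the smallest median of the 5 classes, 0.026, with 7 above 0, 2 below and 0 past the unadjusted threshold. Unc13a encodes Munc13-1, which primes vesicles by opening syntaxin. It was at 460.5, 451, 495, 515 and 448 CPM in Ant-134 and 476, 471, 408 and 449 CPM in Scr. Ant-134 libraries 3 and 4 were above every Scr library and Scr library 3 was the lowest of all, with a log2 fold change of 0.071 (SE 0.057, edgeR p of 0.230). Erc2, an ELKS scaffold protein that binds RIM and bassoon, was at 198, 204, 201, 241 and 201 CPM in Ant-134 and 197, 199, 189 and 214 CPM in Scr. Ant-134 library 4 stood above the other 8, which lay between 189 and 214 CPM, and the log2 fold change was 0.066 (SE 0.060, edgeR p of 0.286). Without that library the log2 fold change of Erc2 was 0.0085 (edgeR p of 0.842).

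Unc13c encodes Munc13-3, an isoform best known from cerebellar granule cells, and was at 11.5, 17.6, 18.0, 17.3 and 16.0 CPM in Ant-134 and 18.1, 11.6, 22.6 and 18.2 CPM in Scr. Ant-134 library 1 and Scr library 2 were both near 11.5 CPM while Scr library 3 was the highest, so the log2 fold change of -0.13 (SE 0.19) came with an interval of -0.57 to 0.31. Without Scr library 3 the estimate changed sign, to 0.012. The remaining active zone genes lay close to 0. These were Unc13b at 0.0041, the RIM genes Rims1 at 0.026, Rims2 at -0.0014 and Rims3 at 0.051, and the giant scaffolds bassoon (Bsn) at 0.0080 and piccolo (Pclo) at 0.039.

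All 4 endocytosis genes were above 0, with a median of 0.051 and 0 past the unadjusted threshold. Amph encodes amphiphysin, which recruits dynamin to the necks of budding vesicles, and was at 250.3, 243, 258, 262 and 238 CPM in Ant-134 and 233, 229.7, 239 and 251 CPM in Scr. Ant-134 libraries 3 and 4 were above every Scr library, with a log2 fold change of 0.071 (SE 0.044, edgeR p of 0.128). Sh3gl2 encodes endophilin A1, which bends the membrane and brings synaptojanin to it, and was at 222, 236, 266, 257 and 226 CPM in Ant-134 and 219.9, 228, 227 and 242 CPM in Scr. The same libraries, 3 and 4, were above every Scr library, and the log2 fold change was 0.073 (SE 0.056, edgeR p of 0.211). Dnm1, the neuronal dynamin that cuts vesicles free, was at 1428, 1477, 1566, 1489 and 1362 CPM in Ant-134 and 1477, 1399, 1373 and 1504 CPM in Scr. Ant-134 library 3 was the highest and library 5 the lowest of the 9, with a log2 fold change of 0.026 (SE 0.047, edgeR p of 0.586). Synj1, the lipid phosphatase synaptojanin, was at 0.031.

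The highest and lowest values were concentrated in a few libraries. Ant-134 library 3 held the highest value of the 9 for 17 of the 47 genes and Ant-134 library 4 for 14, whereas Scr library 2 held the lowest for 14 and Scr library 3 for 9. The median deviation of the 47 genes from the Scr mean on the log2 scale was -0.0082, 0.052, 0.082, 0.052 and -0.017 in Ant-134 libraries 1 to 5, and 0.0091, -0.051, 0.0042 and 0.067 in Scr libraries 1 to 4. Thus Scr library 4 was above 4 of the 5 Ant-134 libraries, and the ranges of the groups overlapped. Together the 47 genes took between 1.84% and 1.95% of all counts in Ant-134 and between 1.81% and 1.93% in Scr.

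The same libraries also differed in regional markers. By median deviation from the Scr mean, the 5 markers of hippocampal excitatory neurons were at 0.15 and 0.16 in Ant-134 libraries 3 and 4, the highest of the 9 libraries, and the 5 CA3 markers were at 0.13 and 0.20 there. The 5 markers of the neighbouring thalamus were at 0.48 in Ant-134 library 3 and between -0.17 and 0.18 in the other 8. The summed thalamic level was 54.99 to 67.1 CPM in Ant-134 and 48.5 to 70.7 CPM in Scr, and none of these genes was at 0. Their median log2 fold change, 0.24, was the most positive of the marker lists tested (3 of 5 above 0, 1 past the unadjusted threshold, Lef1 at 0.44 with an edgeR p of 0.0338), and their part in the vesicle gene values was not tested. Beside the 5 pan-neuronal markers, which summed to 3918 to 4392 CPM in Ant-134 and 4088 to 4319 CPM in Scr, with a median log2 fold change of 0.032 (3 of 5 above 0), the median of the vesicle genes was 0.039. The median was 0.089 for the hippocampal excitatory neuron markers (5 of 5 above 0, 0 past the unadjusted threshold) and 0.11 for the 5 dentate granule cell markers (4 of 5 above 0, 1 past it, Dsp with an edgeR p of 0.0230). The CA1 and CA3 pyramidal cell markers had lower medians, 0.028 and 0.014, with 3 of 5 above 0 in each list, and the 7 interneuron markers had a median of 0.039 (6 of 7 above 0, 0 past the threshold). The 6 microglial markers were all below 0 (median -0.20, 3 past the unadjusted threshold), as were the 5 endothelial markers (median -0.15, 1 past it), which summed to 143 to 180 CPM in Ant-134 and 145 to 212 CPM in Scr. The dentate markers, none at 0, summed to 209 to 235 CPM in Ant-134 and 184 to 242 CPM in Scr, and the part of these marker differences in the vesicle gene values was not tested.

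**Figure D3:**
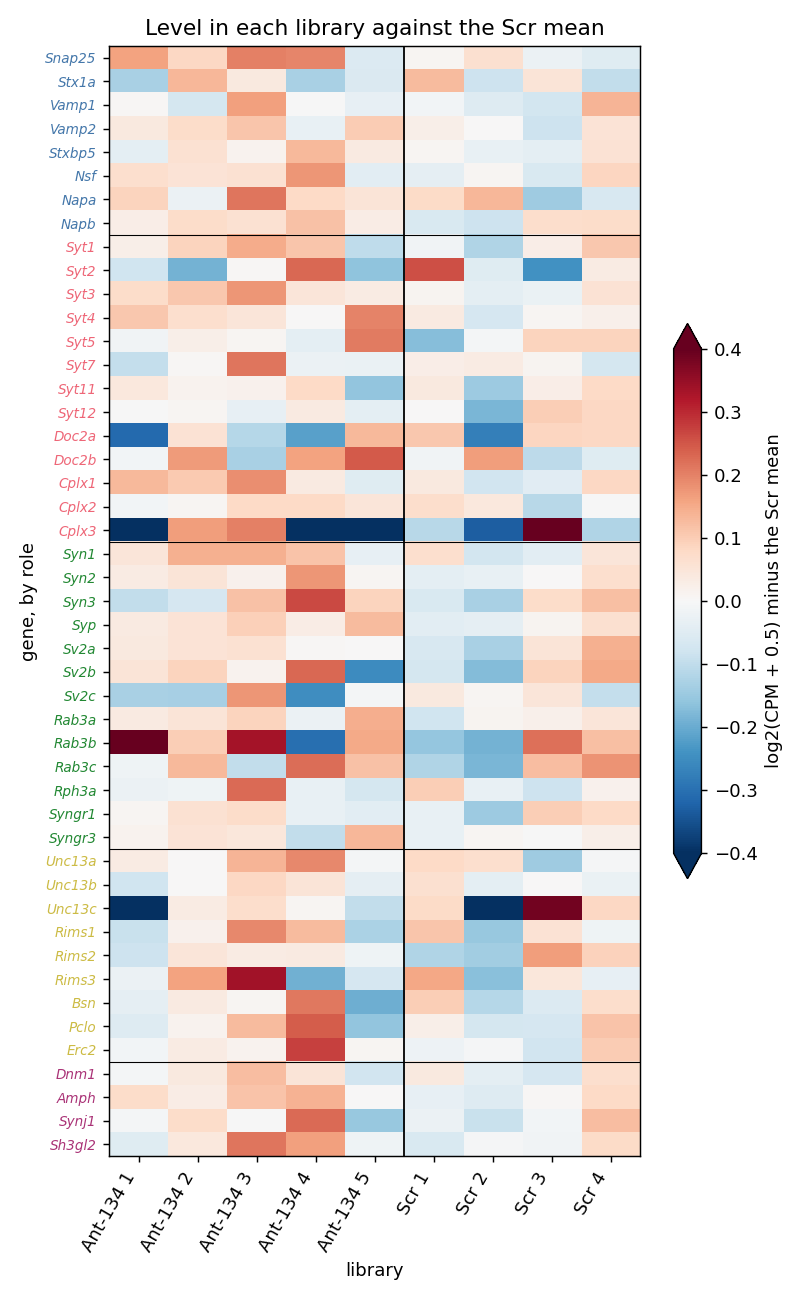
Each gene (rows, by role) in each library (columns), as log2(CPM + 0.5) minus the mean of the Scr libraries; red is higher and blue lower, with colours saturating at 0.4. Ant-134 libraries 3 and 4 hold most of the highest values and Scr library 2 holds more of the lowest than any other library, and no row separates the groups completely.

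Levels per length spanned more than the fold changes did. They rest on the annotated length of each gene, and the length of the transcripts present was not measured. The 47 genes ran from 286 ± 11.7 FPKM (SD, n = 9 libraries) for Cplx2 to 0.699 ± 0.0670 FPKM for Syn3, and 42 of them were above the median of all genes tested, 3.39 FPKM. At the top, Cplx2, Vamp2 (283 ± 12.5 FPKM), Dnm1 (274 ± 12.6), Cplx1 (264 ± 16.5) and Rab3a (250.3 ± 11.4) overlapped with their neighbours in this order. The next gene, Syp at 197 ± 7.82 FPKM, was below Rab3a in all libraries. It was followed by Syn1 (186 ± 10.4 FPKM), Snap25 (182 ± 12.8), Syt11 (160.5 ± 9.53) and Syt1 (148 ± 9.53), each overlapping the one before. Further breaks with no overlap between neighbours came after Syt1, Sv2a, Syngr3, Erc2, Stxbp5 and Rims2. The active zone genes were the lowest class, with a median of 9.97 FPKM and a maximum of 36.4 ± 2.39 FPKM for Unc13a, against a median of 86.9 FPKM for vesicle proteins.

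**Figure D4:**
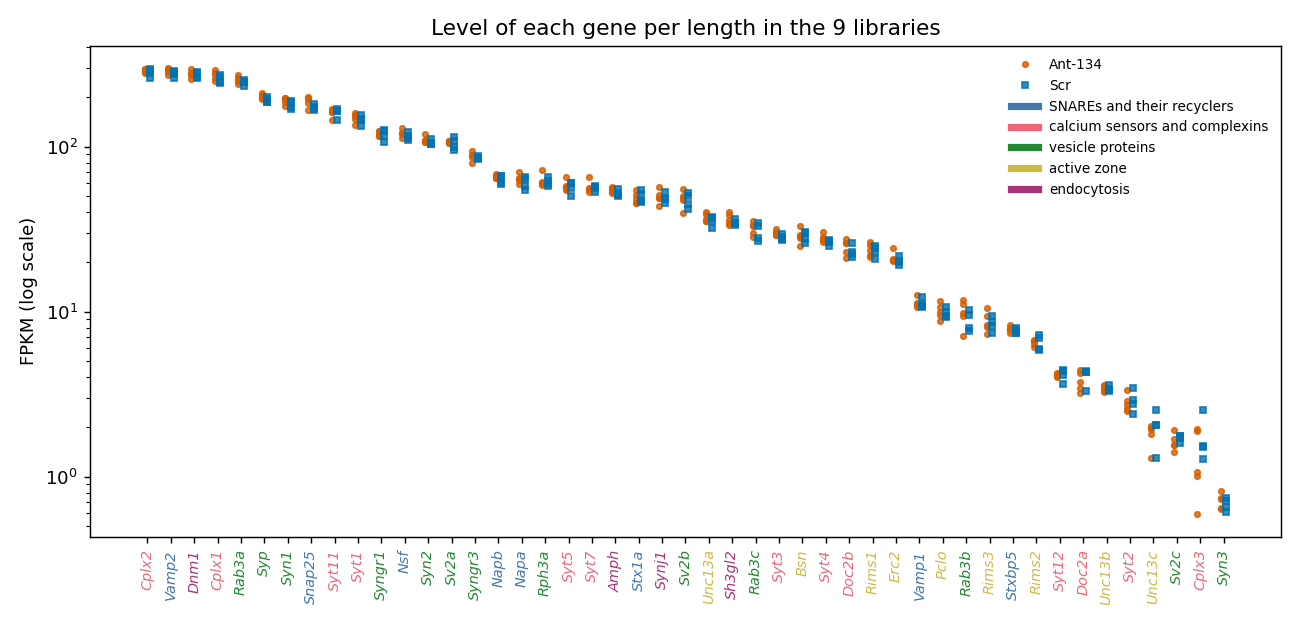
FPKM of each gene in the 9 libraries (y axis, log scale), with genes ordered by their mean and names coloured by role. Circles are Ant-134 and squares Scr libraries; the levels run from 286 FPKM for Cplx2 down to 0.699 FPKM for Syn3, and the spread between libraries is largest for Cplx3.

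Families were formed from the listed genes only, and within most of them 1 gene carried most of the signal. In FPKM, Vamp2 was 25.1 ± 1.35 times as high as Vamp1 (SD, n = 9 libraries), Unc13a 10.6 ± 0.604 times as high as Unc13b, Rab3a 8.03 ± 0.817 times as high as Rab3c and Doc2b 6.25 ± 1.06 times as high as Doc2a. These ratios depend on the annotated gene lengths, such as 3809 bases for Vamp2 and 10167 bases for Vamp1. Without division by length, the mean in Ant-134 was 1107 CPM for Vamp2 and 116 CPM for Vamp1. Syn1 made up 63.0% ± 1.18 of the synapsin signal, Syn2 36.8% ± 1.16 and Syn3 0.237% ± 0.0197. Sv2a made up 68.1% ± 1.73 of the SV2 signal, and Rims1 61.0% ± 1.55 of the summed signal of Rims1, Rims2 and Rims3. Rims4, which was outside the list and not in this share, averaged 17.0 FPKM. Beside it, Rims1 averaged 23.5 FPKM, Rims3 8.56 FPKM and Rims2 6.48 FPKM. In a few families the leading genes were close to each other. Cplx2 exceeded Cplx1 by 1.09 ± 0.0726 times and Napb exceeded Napa by 1.04 ± 0.105 times, and in both pairs the ranges over libraries overlapped. Among the 8 listed synaptotagmins, Syt11 and Syt1 together took most of the signal, at 33.0% ± 1.18 and 30.5% ± 0.844. Of these 8, Syt5 (11.8% ± 1.03) and Syt7 (11.6% ± 0.764) followed. Syt13, which was outside the list and not in these shares, averaged 65.9 FPKM, beside 57.3 FPKM for Syt5 and 56.5 FPKM for Syt7.

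These proportions, each over the listed genes of a family, were compared between the groups as 34 shares in 11 families. No exact permutation test gave a p below 0.05. The nearest was Syt3, which made up 6.12% ± 0.159 of the synaptotagmin signal in Ant-134 and 5.88% ± 0.177 in Scr (exact permutation p = 0.0794, and 1 after adjustment over the 34 shares). The share of Unc13a among the Munc13 genes was 87.7% ± 0.825 in Ant-134 and 86.7% ± 1.88 in Scr (exact permutation p = 0.341), and that of Cplx3 among the complexins was 0.229% ± 0.10 and 0.321% ± 0.118 (exact permutation p = 0.262).

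Since Ant-134 is directed against miR-134, the 3′ UTRs of the 47 genes were searched for its seed match. The mature miR-134-5p (RefSeq, GRCm38.p6, chr12:109734145-109734166, + strand) is shown with its seed, bases 2 to 8, in capitals, so that the matches can be read against it.
miR-134-5p: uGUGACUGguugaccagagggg
A match was CAGTCAC, or AGTCACA, which pairs with bases 2 to 7 and ends in A, on the transcript strand of the longest annotated 3′ UTR (GENCODE M21, GRCm38). Of the 47 genes, 12 held at least 1 match (25.5%), beside 2973 of 15278 tested genes with a 3′ UTR (19.5%). The UTRs of the vesicle genes were longer, with a median of 2375 bases against 1164 bases. There were 14 matches in the 12 genes, of which 4 had both forms joined in 8 bases. The matches of Snap25, which had the smallest p, of Unc13a, and of the 4 genes with the 8-base form are shown 5′ to 3′ with 10 bases on either side and the match in capitals.
Snap25: cacacagagtCAGTCACccccattgta
Unc13a: tagtccacacCAGTCACcataccattt
Stxbp5: tgttttacctCAGTCACAcggctttaac
Syt12: tcatggtgagCAGTCACAcaatagaaga
Syngr1: tgagtgtggtCAGTCACAggatgtgggc
Rims2: cactaagatgCAGTCACAtaagactttc
They lie at chr2:136781283-136781309 (+), chr8:71626033-71626059 (-), chr10:9760748-9760775 (-), chr19:4447046-4447073 (-), chr15:80116577-80116604 (+) and chr15:39684008-39684035 (+), in that order. The Snap25 match begins at base 150 of a 3′ UTR of 1285 bases.

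The genes with a match had a lower median than those without one. Their median log2 fold change was 0.035, with 8 of 12 above 0, and that of the 35 without a match was 0.054, with 30 above 0. The 4 genes with the 8-base form were at 0.040 (Stxbp5), -0.0096 (Syt12), 0.012 (Syngr1) and -0.0014 (Rims2), with SEs between 0.043 and 0.065. Snap25, with the largest log2 fold change of the 12, had the form without the closing A. The other matches were in Cplx2, Sv2c, Unc13c, Rims3, Synj1 and Sh3gl2, with a further match in Syngr1, AGTCACA at base 2128 of its 3′ UTR. The study does not list Snap25 as a predicted target of miR-134. A seed match is a description of sequence and not a target prediction, and mature miR-134 itself is not measured by these poly-A libraries.

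Promoter windows from 250 bases before to 50 bases after the annotated start (RefSeq, GRCm38.p6) were at hand for 36 of the 47 genes, in 46 windows. Those of Snap25, Vamp2, Syt4, Syt5, Syt7, Syt12, Doc2a, Doc2b, Syn3, Syngr3 and Rims2 were not used here. The windows were rich in CpG, with a median GC content of 62.3% beside 52.7% over all 32851 windows, and with a median of 18.5 CG pairs beside 7. The GC box GGGCGG, read on both strands, was in 63.0% of the members' windows and in 35.66% of all windows, and the part of the base composition in this share was not tested. The cyclic AMP response element TGACGTCA is a palindrome bound by CREB, whose gene Creb1 is a target of miR-134 that the study followed. This element, which holds a CG pair, was in 3 windows (6.5%), beside 1.79% of all. The part of the base composition in this share was not tested either. These were the windows of Sh3gl2, Napa and Syn1, shown 5′ to 3′ on the strand of the gene with the element in capitals.
Sh3gl2: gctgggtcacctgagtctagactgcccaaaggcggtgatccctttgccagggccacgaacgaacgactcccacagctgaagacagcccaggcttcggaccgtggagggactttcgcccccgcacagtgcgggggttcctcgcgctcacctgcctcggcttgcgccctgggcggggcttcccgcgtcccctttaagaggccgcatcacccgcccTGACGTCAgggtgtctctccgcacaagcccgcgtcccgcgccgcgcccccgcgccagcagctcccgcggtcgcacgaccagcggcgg
Napa: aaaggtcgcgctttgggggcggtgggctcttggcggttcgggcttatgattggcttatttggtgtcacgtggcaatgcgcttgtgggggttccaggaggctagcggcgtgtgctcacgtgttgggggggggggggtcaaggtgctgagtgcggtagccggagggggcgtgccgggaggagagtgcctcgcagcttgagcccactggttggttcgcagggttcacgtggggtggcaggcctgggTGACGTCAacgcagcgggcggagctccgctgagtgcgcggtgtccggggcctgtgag
Syn1: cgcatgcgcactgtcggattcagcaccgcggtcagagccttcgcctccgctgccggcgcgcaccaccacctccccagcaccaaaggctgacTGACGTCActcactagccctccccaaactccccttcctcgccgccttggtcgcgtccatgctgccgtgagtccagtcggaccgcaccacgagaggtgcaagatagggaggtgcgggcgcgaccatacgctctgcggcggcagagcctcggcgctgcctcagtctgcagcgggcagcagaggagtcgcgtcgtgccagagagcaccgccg
They span chr4:85205206-85205505 (+), chr7:16098330-16098629 (+) and chrX:20920869-20921168 (-), and the element begins 37, 7 and 159 bases before the start. The log2 fold changes of these genes were 0.073, 0.081 and 0.084, none past the unadjusted threshold. The letters TTCAGCACC, the left part of the RE1 element bound by the neuronal repressor REST, were found on either strand in the windows of Syn1 and Unc13a (4.3% of windows, beside 0.37% of all). In the Syn1 window this stretch lies upstream of the cyclic AMP element.

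The rest of the vesicle cycle was read from the same fit. Of 62 further genes, comprising other SNAREs, synaptotagmins, priming factors, liprins, vesicular transporters, and clathrin with its adaptors, 44 were above 0 and 18 below, with a median log2 fold change of 0.026. In edgeR 1 was higher at an unadjusted p below 0.05, 0 were lower and 0 passed adjustment, so that 1.61% were higher beside 1.49% of all genes tested. In DESeq2 3 were higher (4.84%) and 0 passed adjustment. Beside this, 1.08% of 37435 genes were higher in that test, which had no filter on low counts, so the 2 shares are not over like genes. The 1 gene was Ppfia2, which encodes the active zone scaffold liprin-α2. It was at 158, 158, 148, 175 and 161 CPM in Ant-134 and 142, 156, 134 and 147 CPM in Scr. Here 4 of the 5 Ant-134 libraries were above every Scr library and library 3 lay among them, with a log2 fold change of 0.14 (SE 0.054), an edgeR p of 0.0185 and an adjusted p of 0.998. Its edgeR p was 0.0505 without Scr library 1 and 0.0729 without Scr library 3, where its log2 fold change was 0.13 and 0.11. DESeq2 also called Snap47, a SNAP-25 relative found in many tissues, with a DESeq2 p of 0.0387, and Ap2b1, the β subunit of the clathrin adaptor AP-2, with 0.0489. The most negative estimate of the list was that of Cask, a presynaptic scaffold kinase, at -0.087 (SE 0.043, edgeR p of 0.0628), and it was lower at the unadjusted threshold without Ant-134 library 2 (-0.12, edgeR p of 0.0202).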

How the data were processed

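Poly-A RNA-seq libraries of 9 hippocampi were grouped as Ant-134 (n = 5) or Scr (n = 4) by their sample titles. The authors mapped reads to GRCm38 with HISAT2 2.0.5, counted them per gene with featureCounts 1.5.0-p3, and deposited the raw counts. The deposited FPKM values are the authors' counts scaled for gene length and library total, and served here to compare levels between genes, for the shares within families and for the limma alternatives. Strand use in counting is not given in the sources used here, so overlapping antisense transcripts could add to a gene. The labels do not give the sex of each mouse.

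Genes were filtered with filterByExpr (minimum count 10), scaled by TMM and fitted with edgeR 4.0.16 (quasi-likelihood, robust, R 4.3.3) over all genes, with Benjamini-Hochberg adjustment over the 19782 tested. SEs were derived from the F statistic. Single genes were also compared by a two-sided exact permutation test over all assignments of libraries, whose smallest p is 0.00794. Alternatives were DESeq2 1.42.0, its size factors in edgeR, no filter, at least 10 counts in every library, the replicate number as a block, a Y-linked gene covariate, limma 3.58.1 on log2 FPKM with a pseudocount of 1 or 0.1, and leaving out each library. Scripts were tested on simulated data.

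Depth sets counting error only: 3 counts correspond to between 0.0715 and 0.105 CPM, and PCR copies cannot be told from molecules. Replicates differed by more than counting noise in each of 16 within-group pairs (chi-square per gene 8.37 to 20.6). The 47 genes, their classes and the further lists were chosen with earlier results of these data known. The 18 genes given library by library were Snap25, those with p below 0.05, in each class the 2 smallest p values and the highest FPKM, the 2 most positive and 2 most negative log2 fold changes, and the 3 lowest FPKM. Of 63 further vesicle cycle names 62 were matched. Of those, Snap47, Ap2b1, Cask and Rimbp2 were named after their values were seen. The 1.2-fold bound on intervals was set after the values were seen. Seed matches used GENCODE M21.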

Additional observations from a re-analysis of the deposited data

Results flagged for a closer look

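Among the 18 genes described library by library and 3 measures of each library, 1 of 42 groups of values held a library far from the others by Dixon's ratio at the 95% level, where about 2.1 would be flagged by chance. This was Erc2 in Ant-134 library 4, at 241 CPM beside 198 to 204 CPM in the other 4 Ant-134 libraries.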

How the results depend on the processing

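The number of members with an unadjusted p below 0.05 was 1 in edgeR. It was 2 with DESeq2 without a filter, with DESeq2 size factors in edgeR and with limma on log2(FPKM + 0.1), each time Snap25 and Syt3. With limma on log2(FPKM + 1) and without Scr replicate 4 it was 1, but the gene was Syt3 and not Snap25. It was 0 with at least 10 counts in every library and with the Y-linked gene covariate. With single libraries left out it ranged from 0 to 4, being 4 without Ant-134 replicate 5 (Snap25, Syt3, Cplx1 and Syn1), 3 without Ant-134 replicate 4 (Syt3, Syt4 and Rab3b), and 0 without Ant-134 replicate 1 or 3 or Scr replicate 1 or 3. Those 4 and 3 were 8.51% and 6.38% of the members, all higher, beside 1.63% and 1.97% of all genes higher in the same fits, and over all settings the share of all genes higher was 0.969% to 1.99%. The number after adjustment was 0 under each of these settings. The further vesicle cycle genes at the unadjusted threshold numbered 1 in edgeR, 3 with DESeq2, 3 with the replicate block and 2 with limma on either FPKM scale, and ranged from 0 to 3 with single libraries left out, with 3 without Ant-134 replicate 5 or Scr replicate 4 and 0 without Scr replicate 1 or 3. These calls were of higher genes except Cask without Ant-134 replicate 2 (log2 fold change -0.12, p of 0.0202) and Rimbp2 without Ant-134 replicate 3 (-0.11, p of 0.0481). The median log2 fold change of the members stayed above 0, between 0.022 without Scr replicate 2 and 0.069 without Scr replicate 4, with 30 to 40 of the 47 above 0. Of 323 values of single genes under alternatives, 301 kept their direction and side of the threshold, 11 lost the call (9 of Snap25 and 2 of Ppfia2), 10 gained one, and 1 changed sign, Unc13c at 0.012 without Scr replicate 3 (range -0.29 to 0.012 with single libraries left out). The cause of these changes was not tested.

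The replicate numbers gave no sign of pairing, with correlations of deviations between same-numbered libraries of -0.15, -0.071, -0.048 and 0.053. With the replicate block the count of members at the unadjusted threshold was 1, Snap25 at a log2 fold change of 0.16 (edgeR p of 0.00955). Ant-134 replicate 5 has no Scr library of its number, so the block takes it out of the contrast, and the estimate was also 0.16 without that library. The member with the fewest counts was Cplx3, with 54 to 257 in a library, so that every member was above the floor of 3 counts in every library.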
